A study of Mus musculus with 17 samples.

Results

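The 9 genes described here encode feedback inhibitors of MAP kinase signaling: the phosphatases Dusp1, Dusp4, Dusp5 and Dusp6, the Sprouty proteins Spry2 and Spry4, the Spred proteins Spred1 and Spred2, and Errfi1. They were chosen by name, from results already seen in these data, and stand among 36293 genes listed for the bulk nuclear RNA-seq and 37608 for the sNucDrop-seq. Their values in CUS and control mice are therefore given as a description, and the FDR printed beside a member is not independent evidence. Adult male C57BL/6 mice (C57Bl/6J in the methods), with no engineered allele in any group, were left unstressed (control) or went through chronic unpredictable stress (CUS), with 3 stressors a day on 12 days. Bulk nuclear RNA-seq measured the mPFC of 4 control and 5 CUS mice at P90, and sNucDrop-seq, a droplet method that counts the RNA of single nuclei, measured the neocortex of 4 control and 4 CUS mice at P80. The labels place collection 24 h after the final stressor in all groups, but the methods state for the bulk mice that it followed the last behavioral test by 24 h, so that their time since the stressor is uncertain. Each mouse is 1 replicate, and every measurement is of RNA in nuclei.

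MAP kinases pass signals from growth factor receptors and synaptic activity to the nucleus through a chain of kinases that ends, in its best known branch, in ERK. ERK activity induces transcripts whose proteins then switch the pathway off. Dual-specificity phosphatases remove the activating phosphates from the MAP kinases themselves: Dusp6 acts on ERK in the cytoplasm, Dusp5 on ERK in the nucleus, and Dusp1 and Dusp4 are nuclear and also act on JNK and p38. Sprouty and Spred proteins act further upstream, on the activation of Ras and Raf, and Errfi1 (also called Mig6) binds and inhibits receptors of the EGF receptor family. In the brain, Dusp1 is also an immediate-early gene that neurons induce after activity.

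Upstream sequences are shown for 4 members because these genes carried the clearest differences between CUS and control mice or matches to elements through which activity and growth factor signals are known to reach promoters. RefSeq start sites on GRCm38.p6 were found for 7 of the 9 members, with 8 starts, and the 250 bases before each start were searched on both strands. The elements were the cAMP response element TGACGTCA, the AP-1 element TGANTCA, the ETS element CCGGAA, the EGR element GCGNGGGCG, the YY1 core AAGATGG, and the CArG box, to which serum response factor binds. Capitals mark the matches, and each sequence reads 5′ to 3′ toward the gene and stops where the annotated gene begins or, for Errfi1, at the RefSeq start.
Dusp1 (chr17:26508520-26508722, minus strand): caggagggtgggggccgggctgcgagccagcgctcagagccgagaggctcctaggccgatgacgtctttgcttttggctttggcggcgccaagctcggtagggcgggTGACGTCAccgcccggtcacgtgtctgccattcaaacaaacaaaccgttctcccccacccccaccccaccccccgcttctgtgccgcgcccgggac
Dusp5 (chr19:53528895-53529108, plus strand): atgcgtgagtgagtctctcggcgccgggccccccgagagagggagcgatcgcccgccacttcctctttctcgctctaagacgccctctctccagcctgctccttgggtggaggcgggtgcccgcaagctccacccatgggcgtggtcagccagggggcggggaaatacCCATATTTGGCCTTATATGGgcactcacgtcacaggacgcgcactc
Errfi1 (chr4:150854820-150855069, plus strand): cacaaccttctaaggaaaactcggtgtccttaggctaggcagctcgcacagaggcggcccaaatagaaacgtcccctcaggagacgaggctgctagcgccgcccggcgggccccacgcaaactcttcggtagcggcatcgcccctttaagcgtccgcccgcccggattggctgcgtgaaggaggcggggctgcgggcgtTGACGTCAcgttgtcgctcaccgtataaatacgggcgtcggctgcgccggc
Dusp6 (chr10:99262981-99263230, plus strand): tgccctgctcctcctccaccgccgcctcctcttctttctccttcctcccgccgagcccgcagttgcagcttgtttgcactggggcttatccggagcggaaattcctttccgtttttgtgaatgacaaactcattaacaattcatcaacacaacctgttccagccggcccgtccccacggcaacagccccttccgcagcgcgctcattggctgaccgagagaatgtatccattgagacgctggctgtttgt

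The Dusp1 stretch held 1 cAMP response element, between 143 and 136 bases before the RefSeq start. The Dusp5 stretch held 2 CArG boxes next to each other, at 82 to 73 and 72 to 63 bases before the start. Errfi1 has 2 RefSeq starts, and the one shown, which lies inside the gene as annotated in the bulk table, had a cAMP response element at 51 to 44 bases. No match was found before Dusp6, Spry2, Spred1, Spred2 and the other start of Errfi1, which says only that these letters were not in the 250 bases. Among 32851 promoters of the same length, 1.55% held the cAMP response element, 1.47% a CArG box, 6.75% the AP-1 element, 12.0% the ETS element, 4.7% the EGR element and 4.49% the YY1 core. A match is a stretch of letters and not a measured binding site.

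Facts on the libraries that touch all members follow. Bulk depth was 26188825 to 30525015 reads on genes per mouse. The sNucDrop-seq tables held 40000 barcodes, of which 26490 nuclei were kept after filters on genes, mitochondrial reads and doublet score, with 4710583 to 12731890 UMIs per mouse, and no pair of mice shared more than 2 barcodes. CPM values below are relative to the total of reads or UMIs and say nothing of absolute RNA amounts. Values that compare control and CUS mice are scaled by the TMM factor of the fit. Those that compare classes or clusters of nuclei with each other, with the ranges of single mice beside them, have no TMM factor. In tissue, fewer cells of a type and less RNA per cell cannot be told apart. Markers of several cell types also differed in bulk: the summed CPM of 7 astrocyte markers was 1337 to 1498 in control and 1052 to 1318 in CUS mice (3 of 7 passed the test, all lower), and that of 4 markers of newly formed oligodendrocytes 132 to 161 and 117 to 136 (2 passed, both lower). The sum of 4 Inh_Vip markers was 42.5 to 48.7 CPM in control and 51.0 to 61.8 CPM in CUS mice (1 passed, higher). The sums of 2 lists were higher in CUS mice while most of their genes had a lower mean. For 5 OPC markers the sum was 1121 to 1363 and 1422 to 1571 CPM, with Tnr higher, Lhfpl3 lower and a median log2 fold change of -0.15. For 8 striatal markers, which are not typical of the mPFC, it was 678 to 1166 and 1163 to 1405 CPM, with Pde10a higher, no other call and a median of -0.83. Mature oligodendrocyte markers summed to 242 to 590 CPM in control and 261 to 331 in CUS mice, and their 6 genes did not pass. The sum of the Inh_Pv markers was 369 to 403 CPM in control and 413 to 470 CPM in CUS mice, without overlap and with no call. Each other list had at most 1 call in a direction. The part of these shifts in the values below was not tested.

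In the mPFC, Dusp1 was the member that passed the test, and it was lower in CUS mice. Its level was 14.1, 12.5, 10.4 and 12.1 CPM in control mice 1 to 4 and 8.35, 8.00, 7.13, 8.18 and 8.95 CPM in CUS mice 1 to 5. Every CUS mouse lay below every control mouse, with control mouse 3 nearest to the CUS group. The means were 12.3 ± 1.55 (SD, n = 4) and 8.12 ± 0.656 CPM (SD, n = 5), and the log2 fold change of CUS to control was -0.60 with an SE of 0.097 (edgeR quasi-likelihood test, FDR = 0.0100). The values rest on 278 to 375 reads per control mouse and 203 to 260 per CUS mouse. Of the 18394 genes tested, 2.13% were called lower at an FDR of 0.05, against 1 of the 9 members. The gene lies at chr17:26505590-26508519 on the minus strand, and its exons share 11 of 3311 bases with Ergic1 on the other strand in Gencode vM21.

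Dusp6, whose product removes phosphate from ERK, had the other pair of groups that did not overlap, in the opposite direction. Its level was 18.7, 19.9, 21.2 and 21.2 CPM in control mice and 24.5, 21.5, 22.7, 25.2 and 24.6 CPM in CUS mice. The lowest CUS mouse, mouse 2, lay just above the highest control mice. The log2 fold change was 0.23 with an SE of 0.067 and an FDR of 0.0749 in edgeR's quasi-likelihood test, so that Dusp6 did not pass. It passed under the likelihood ratio test (FDR = 0.0491) and DESeq2 (FDR = 0.0402). No member passed as higher, where 1.16% of all genes did. Groups that did not overlap were seen for 2 of the 9 members and for 8.75% of all genes tested, and since the members were chosen on this contrast nothing is read from these shares. The median log2 fold change was 0.07 over the members and 0.0060 over all genes tested.

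**Figure D1:**
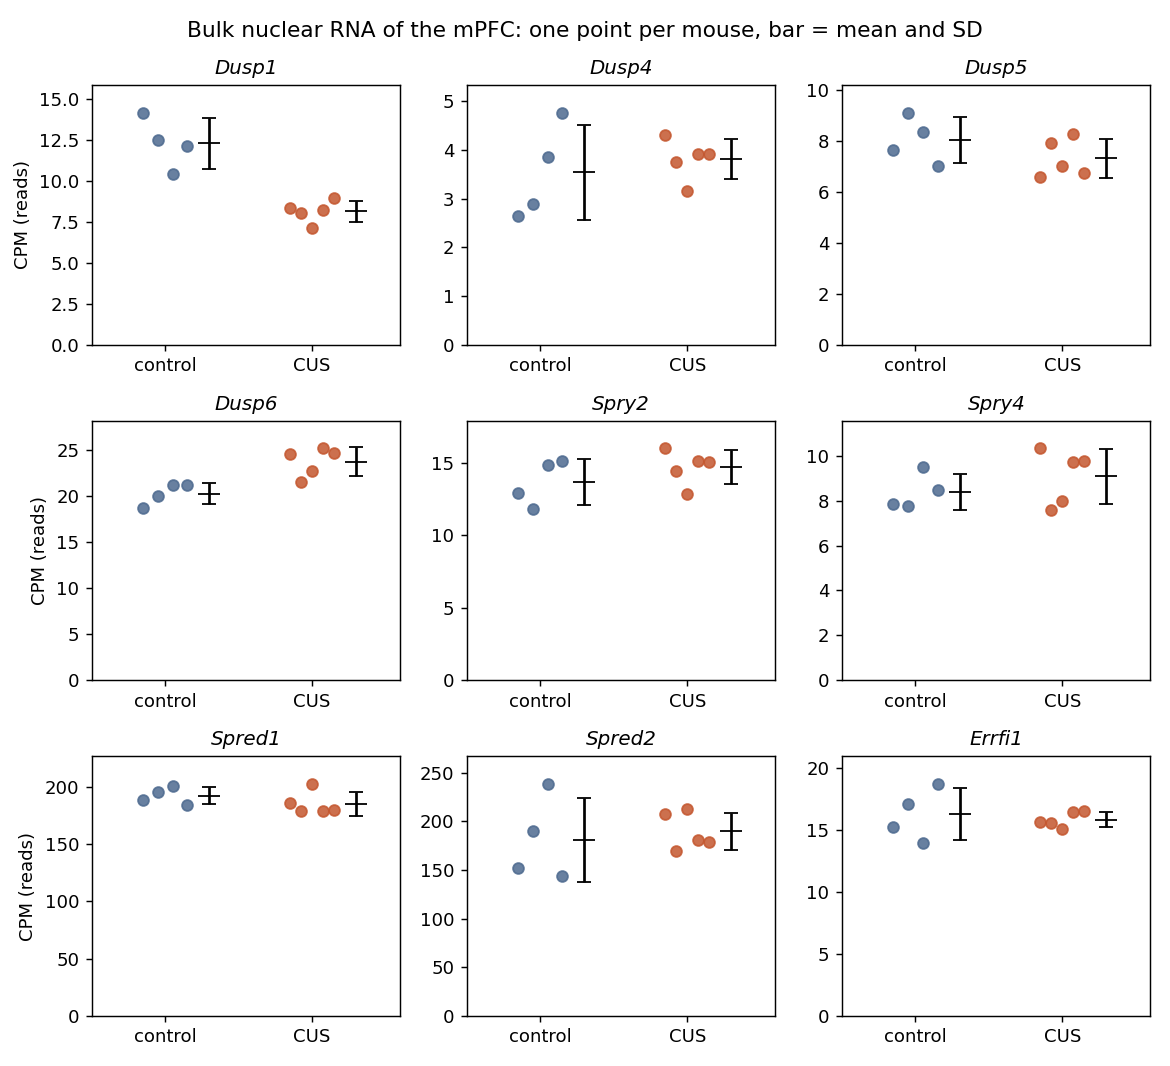
Level of each feedback gene in the bulk mPFC libraries, in CPM on a linear axis per gene, with a point for each of 4 control and 5 CUS mice and a bar at the group mean with its SD. The CUS points of Dusp1 lie between 7.13 and 8.95 CPM, below all control points, and those of Dusp6 lie above all control points.

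The other phosphatases did not pass. Dusp5 was 7.62, 9.09, 8.32 and 7.00 CPM in control mice and 6.57, 7.92, 7.00, 8.28 and 6.74 CPM in CUS mice, overlapping groups with a log2 fold change of -0.13 (SE 0.104). Its exons share 547 of 2473 bases with AC137853.2, an antisense gene of Gencode vM21. By the methods the bulk libraries were made with a stranded kit, but the sources used here do not state whether reads were counted by strand. Reads of the pair may therefore not be told apart. Dusp4 was the least abundant member, at 2.64 to 4.76 CPM in control mice and 3.16 to 4.30 CPM in CUS mice. The CUS range of Dusp4 lay within the control range, and its log2 fold change was 0.10 (SE 0.169).

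The Sprouty and Spred genes and Errfi1 differed little between the groups. Spry2 was 11.8 to 15.1 CPM in control and 12.9 to 16.0 CPM in CUS mice, with a log2 fold change of 0.10 (SE 0.089). Spry4 was 7.78 to 9.52 CPM in control and 7.57 to 10.3 CPM in CUS mice, with a log2 fold change of 0.11 (SE 0.109). Both pairs of ranges overlapped over most of their length. Spred1, at 184 to 201 CPM in control and 179 to 203 CPM in CUS mice, had the narrowest interval of the 9, from -0.16 to 0.05 around a log2 fold change of -0.05. Spred2 was 152, 190, 238 and 144 CPM in control mice and 169 to 212 CPM in CUS mice. Control mice thus spanned a wider range than CUS mice, and the log2 fold change of 0.07 had an interval of -0.19 to 0.32. Errfi1 was 13.9 to 18.7 CPM in control and 15.04 to 16.5 CPM in CUS mice, with a log2 fold change of -0.04 (SE 0.083). FDRs of these 7 members ran from 0.494 to 0.831 (edgeR), which does not show that their levels were equal.

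Per kilobase of gene span, the members also differed among themselves in bulk. The mean over mice was 5.21 CPM per kb for Dusp6, 3.40 for Dusp1, 3.09 for Spred1, 2.93 for Spry2 and 1.86 for Spred2. It was 1.07 CPM per kb for Errfi1, 0.585 for Spry4, 0.572 for Dusp5 and 0.293 for Dusp4. Spred1 and Spred2, which had the highest CPM, span the longest loci, at chr2:117121374-117182279 and chr11:19924375-20024026, and nuclear RNA can hold intron reads of such genes. The part of intron reads in these levels was not tested. Compared per length, Spred1 and Spred2 stood below Dusp6 and Dusp1, and Spred2 also below Spry2.

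**Figure D2:**
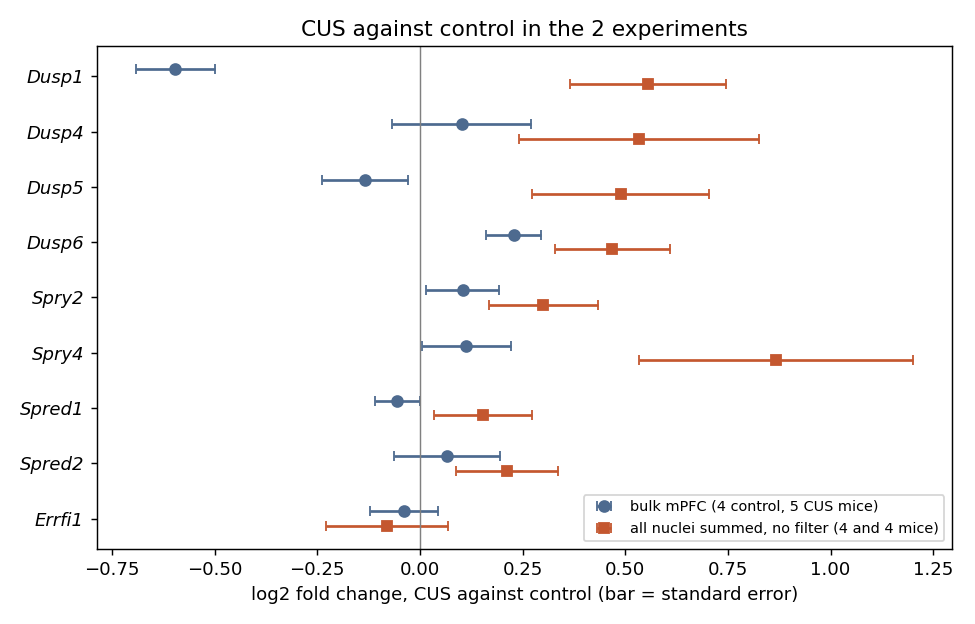
Log2 fold change of CUS to control mice for each feedback gene, with bars of 1 SE on either side, in the bulk mPFC libraries and in the sum of all nuclei, the latter from the fit without a filter on low counts. Dusp1 lies at -0.60 in bulk and at 0.56 in the nuclei, and Errfi1 lies near 0 in both. The bars of the nuclei treat the spread as known and may be too short.

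Genes with related roles, listed by role with results on these mice known, gave 6 calls in the same bulk fit. Of all genes tested there, 2.13% passed as lower and 1.16% as higher. Of 5 other MAP kinase phosphatases, Dusp16, which acts on JNK and p38, was lower in CUS mice. It was 26.5, 24.5, 22.5 and 20.6 CPM in control mice and 16.5 to 17.5 CPM in CUS mice, without overlap. Its log2 fold change was -0.47 with an SE of 0.072 (edgeR, FDR = 0.00952), next to a list median of -0.10 against 0.0060 for all genes. The 2 other family members of the Sprouty and Spred group that could be tested did not pass. Spred3 was 19.2 to 25.7 CPM in control and 24.6 to 32.4 CPM in CUS mice (log2 fold change 0.39, FDR = 0.0541), and Spry1 was 2.19 to 3.40 and 2.35 to 3.30 CPM. Spred3 passed under the likelihood ratio test (FDR = 0.0106), under DESeq2 (FDR = 0.0107) and without control mouse 3 or CUS mouse 2.

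In the ERK cascade, 2 of 22 genes passed as lower and none as higher, beside 2.13% and 1.16% of all genes tested. Without regard to the test, 16 of the 22 had a negative and 6 a positive log2 fold change, with a list median of -0.07. Of all 18394 genes tested, 8952 had a negative and 9442 a positive one. Sos1, the exchange factor that loads Ras with GTP, was 107 to 122 CPM in control and 91.5 to 94.9 CPM in CUS mice, with a log2 fold change of -0.27 (SE 0.053, FDR = 0.0205). Gab1, a docking protein of receptor signaling, was 46.8 to 57.1 CPM in control and 36.5 to 46.0 CPM in CUS mice, with a log2 fold change of -0.34 (SE 0.077, FDR = 0.0359). Neither gene had overlapping groups. Both calls depended on single mice: Sos1 did not pass without control mouse 2, CUS mouse 4 or CUS mouse 5, and Gab1 did not pass without control mouse 2 or 4 or any of CUS mice 2 to 5. The FDR was highest without control mouse 2, at 0.0791 for Sos1 and 0.101 for Gab1. Neither passed over replicates 1 to 4 of both groups, with or without a replicate block.

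Of 13 genes of the JNK and p38 cascade 1 passed as higher and none as lower, beside 1.16% and 2.13% of all genes tested. This gene, Mapk11, encodes the kinase p38 beta and was higher in CUS mice. Its level was 17.5, 18.3, 24.7 and 17.6 CPM in control mice and 32.5, 25.7, 30.9, 33.2 and 39.2 CPM in CUS mice, without overlap, and the log2 fold change was 0.73 (SE 0.125, edgeR FDR = 0.0125). Of the 13 log2 fold changes 6 were negative and 7 positive, with a median of 0.0086, beside 8952 negative and 9442 positive among all genes tested. None of 19 ErbB and FGF receptors and ligands passed, and their median was -0.07. The largest differences there were those of Egfr, at 58.5 to 79.6 CPM in control and 47.8 to 61.2 CPM in CUS mice (log2 fold change -0.35, FDR = 0.0559), and of its ligand Tgfa, at 18.3 to 26.7 and 14.9 to 18.8 CPM (log2 fold change -0.31, FDR = 0.133). Egfr passed under the likelihood ratio test (FDR = 0.0122), under DESeq2 (FDR = 0.0115), without TMM factors and without control mouse 1 or 3. In the sNucDrop-seq data, Egfr was among the 10 leading genes of the Inh_Ndnf-like cluster, a class of interneurons, and not of the astrocyte-like cluster. In the bulk libraries astrocyte markers were lower in CUS mice. The 4 Inh_Ndnf markers summed to 177 to 205 CPM in control and 183 to 209 CPM in CUS mice, with 1 called lower and 1 higher. The part of either cell type in the Egfr values was not tested.

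Among 17 other transcripts known to follow ERK activity, 2 passed as lower and none as higher, beside 2.13% and 1.16% of all genes tested. The log2 fold change was negative for 9 and positive for 8 of them, with a median of -0.01, beside 8952 negative and 9442 positive among all genes tested. Fos, an immediate-early transcription factor gene, was 9.69, 9.43, 6.49 and 7.46 CPM in control mice and 4.19, 4.97, 3.47, 3.34 and 4.06 CPM in CUS mice. Its log2 fold change was -1.05 (SE 0.146, edgeR FDR = 0.00567). Fosl2, of the same family, was 31.0, 32.4, 22.4 and 24.1 CPM in control mice and 14.3 to 21.0 CPM in CUS mice, with a log2 fold change of -0.73 (SE 0.128, FDR = 0.0131). For both genes, as for Dusp1, no CUS mouse reached the lowest control mouse, and control mouse 3 was the lowest of its group. Without control mouse 2 the FDR of Fosl2 was 0.0512.

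**Figure D3:**
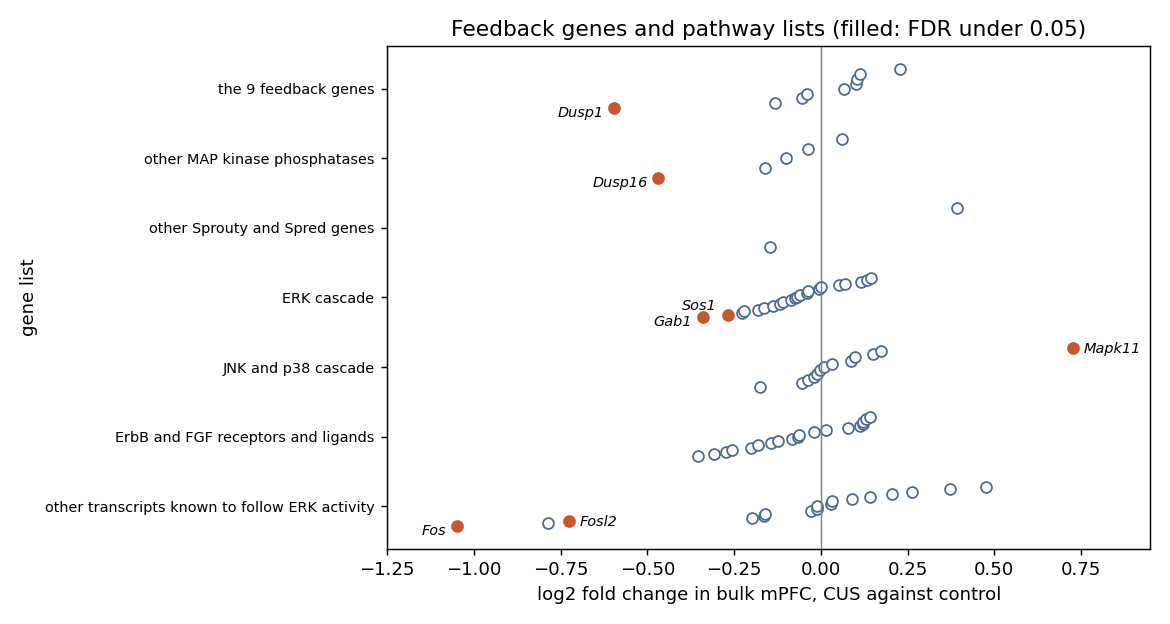
Log2 fold change of CUS to control mice in bulk mPFC for the 9 members and for the tested genes of each related list, by role, with called genes named. Dusp1 at -0.60 lies between Fosl2 at -0.73 and Dusp16 at -0.47, while Mapk11 is the called gene above 0.

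In the nuclei of the neocortex, the direction for Dusp1 was not the same as in bulk. The study sequenced these mice in 2 batches and used batch in its own model, but the labels do not assign mice to batches, so every fit on nuclei below is without a batch term and spread between batches counts as spread between mice. Over all nuclei of a mouse it was 5.76, 6.23, 11.2 and 7.84 CPM in control mice 1 to 4 and 16.6, 9.75, 8.69 and 11.9 CPM in CUS mice 1 to 4. CUS mouse 1 was highest and control mouse 3 lay within the CUS range, so that the groups overlapped. The means were 7.76 ± 2.46 and 11.7 ± 3.50 CPM (SD, n = 4 each), a log2 ratio of 0.60. Dusp1 had 671 UMIs in 26490 nuclei and fell under the filter of summed UMIs over 10% of the nuclei, so it had no test in the planned fit. In a fit without that filter the log2 fold change was 0.56 (SE 0.190, edgeR FDR = 0.279), and without CUS mouse 1 the log2 ratio of the means was 0.38. For members in unfiltered fits on nuclei, p followed the normal distribution of log2 fold change over SE, as if the spread were known exactly. The SE, p and FDR of such fits can thus look firmer than 8 mice allow. The experiments differed in region, age, method and, by the methods, in the event that collection followed, and the difference between them was not tested.

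Dusp6 was 16.9, 19.4, 32.3 and 22.4 CPM in control and 43.2, 25.2, 28.3 and 32.4 CPM in CUS nuclei. As for Dusp1, CUS mouse 1 was highest and control mouse 3 lay among the CUS mice. The log2 ratio of the means was 0.50 in 1900 UMIs. In the fit without the filter, its log2 fold change of 0.47 (SE 0.140, FDR = 0.136) passed the FDR of 0.2 used for nuclei, as did 292 of 36495 genes. That fit treats the spread as known, as given for Dusp1, and nothing is read from this pass. Dusp5 was 4.61, 4.72, 8.49 and 5.01 CPM in control and 12.2, 7.62, 5.89 and 7.78 CPM in CUS mice, with control mouse 3 again standing apart from its group. Dusp4, in 213 UMIs, was 1.68 to 5.01 CPM in control and 2.30 to 5.52 CPM in CUS mice, ranges that overlapped over most of their length.

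Spry2 was 26.7, 29.1, 36.0 and 37.7 CPM in control and 44.2, 37.8, 32.9 and 45.8 CPM in CUS nuclei. CUS mouse 3 lay within the control range and the other CUS mice above it, by little in mouse 2. The log2 ratio of the means was 0.31. Spry4 had 157 UMIs, at 0.842 to 3.27 CPM in control and 2.13 to 4.14 CPM in CUS mice. Errfi1 was 17.1 to 27.2 CPM in control and 17.4 to 24.9 CPM in CUS mice, a log2 ratio of -0.05. It was the member whose mean was lower in CUS mice, and the other 8 had a higher mean, where 49.1% of the 5047 genes tested were higher, although 7 of the 9 members were too rare to be among those genes. Marker sums over all nuclei also differed without overlap: 6 markers of excitatory neurons summed to 1103 to 1195 CPM in control and 1197 to 1367 CPM in CUS mice, and 4 Inh_Ndnf markers to 355 to 398 and 406 to 460 CPM. For 4 choroid plexus markers the sums were 8.06 to 15.9 and 17.6 to 249 CPM. The part of these shifts in the members' values was not tested.

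The Spred genes were the members with enough UMIs for the planned test, 7989 for Spred1 and 3921 for Spred2. Spred1 was 87.2, 127, 120 and 98.6 CPM in control and 125, 110, 123 and 131 CPM in CUS mice, with a log2 fold change of 0.19 (interval -0.05 to 0.43, edgeR FDR = 0.618). Spred2 was 42.3, 56.1, 57.3 and 54.2 CPM in control and 69.1, 54.1, 54.9 and 68.7 CPM in CUS mice, with a log2 fold change of 0.25 (interval -0.0019 to 0.49, FDR = 0.587). In both genes control mouse 1 was lowest and the groups overlapped. Neither passed, as did 1 of 5047 genes (0.0198%), and 400 genes had an unadjusted p under 0.05. None of the 9 members had groups that did not overlap, against 4.99% of the genes tested.

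**Figure D4:**
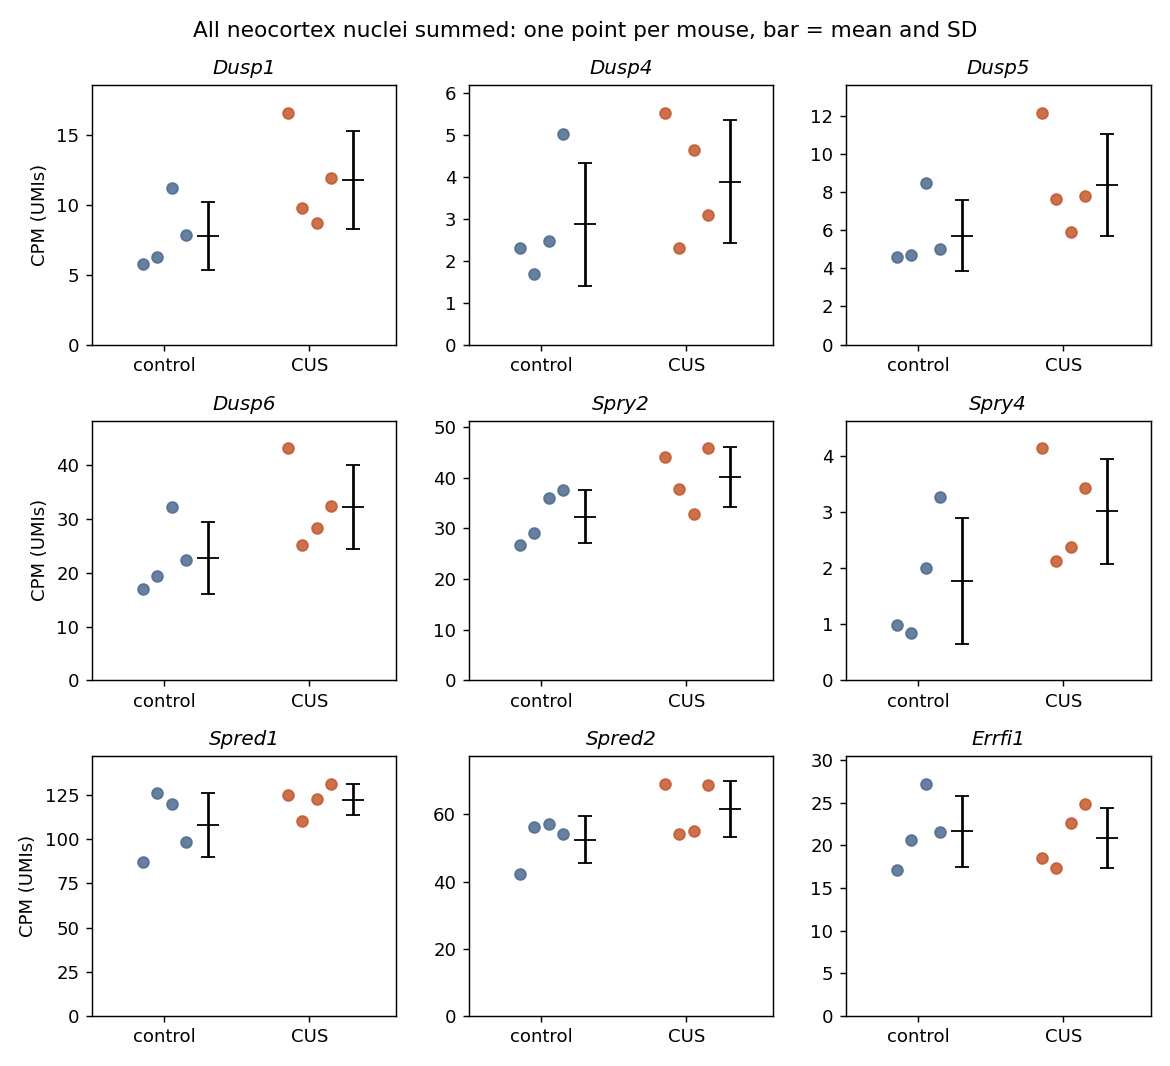
Level of each feedback gene over all nuclei of a mouse, in CPM on a linear axis per gene, with a point for each of 4 control and 4 CUS mice and a bar at the group mean with its SD. CUS mouse 1 gives the highest point for Dusp1, Dusp4, Dusp5, Dusp6, Spry4 and Spred2, and the groups overlap in every gene.

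Nuclei were then divided by marker genes. In 17513 excitatory-like nuclei the values followed those of all nuclei: Spred1 had a log2 fold change of 0.23 (FDR = 0.543) and Spred2 of 0.24 (FDR = 0.548), where 3 of 5359 genes passed (0.056%). Dusp1 was 6.05, 6.31, 12.0 and 7.81 CPM in control and 19.3, 9.35, 7.93 and 12.7 CPM in CUS mice of this class, with CUS mouse 1 again highest. Spry4 was rare there, with 70 UMIs in 17513 nuclei.

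In 2787 inhibitory-like nuclei, Spry2 was 22.7, 22.9, 27.3 and 23.3 CPM in control and 37.8, 36.1, 34.0 and 31.6 CPM in CUS mice. The groups did not overlap, in 184 UMIs, which was so for 1 of the 9 members and for 2.8% of the 4786 genes tested in this class. Spry2 was below the filter there and had no planned test, and without the filter the log2 fold change was 0.48 (SE 0.255, edgeR FDR = 0.711). Dusp6 was 5.23, 7.04, 15.1 and 2.33 CPM in control and 19.6, 13.3, 20.7 and 16.2 CPM in CUS mice of this class, where control mouse 3 exceeded CUS mouse 2. Its log2 fold change in the same fit was 0.99 (SE 0.380, FDR = 0.711). The CUS effect on the Spred genes did not differ detectably between excitatory-like and inhibitory-like nuclei: the difference of log2 fold changes was 0.04 for Spred1 (interval -0.19 to 0.28, FDR = 0.992) and -0.06 for Spred2 (interval -0.42 to 0.30, FDR = 0.990), in a test that called 0.0226% of 4433 genes. Against astrocyte-like nuclei the difference for Spred1 was 0.35 (interval -0.04 to 0.75, FDR = 0.729), in a test that called 1.13% of 2304 genes.

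Across 26 classes of over 200 nuclei, 65 of the 234 pairs of a member and a class had enough UMIs for a test. A single pair passed: Spred1 was higher in CUS mice in Ex_L2/3-like nuclei, the largest class, named from the upper-layer markers Cux2, Rasgrf2, Calb1 and Enpp2. Spred1 was 93.9, 128, 133 and 107 CPM in control and 166, 143, 184 and 157 CPM in CUS mice of this class, so that all CUS mice lay above all control mice. The log2 fold change was 0.48 (SE 0.132, edgeR FDR = 0.192 within the class), against 0.419% of 5494 genes called higher in the class and 0.100% of all 124420 gene and class pairs called. The FDR was above 0.2 without any of control mice 1, 2 and 4 and CUS mice 1, 3 and 4, and reached 0.450 without CUS mouse 1.

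In the same Ex_L2/3-like nuclei Dusp6 was 18.2, 23.5, 40.6 and 34.2 CPM in control and 56.0, 30.4, 35.2 and 54.1 CPM in CUS mice (log2 fold change 0.60, SE 0.235, FDR = 0.345). The groups overlapped, since control mice 3 and 4 exceeded CUS mouse 2. Dusp5, below the filter there, was 4.04, 2.61, 6.25 and 5.90 CPM in control and 13.8, 10.1, 8.598 and 10.6 CPM in CUS mice, in 91 UMIs and without overlap. Groups did not overlap in this class for 2 of the 9 members, Spred1 and Dusp5, and for 5.62% of the 5494 genes tested, and nothing is read from the separation of an untested member. Spred2 had a log2 fold change of 0.38 (FDR = 0.399). Unadjusted p was under 0.05 in 6 of the 65 pairs tested (9.23%) and in 5.92% of all gene and class pairs. Besides Spred1, Spred2 and Dusp6 in Ex_L2/3-like nuclei, these were Dusp6 and Spry2 in Ex_L5/6-like nuclei, with log2 fold changes of 0.61 and 0.65, and Spred2 in a class led by Galnt14 and Col6a1, with 0.78. All 6 were higher in CUS mice. All classes come from the same mice, so these pairs are not independent of each other, within a class or between classes.

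The members differed in where they were found. The levels below are those of the 26 classes of over 200 nuclei, as CPM of the UMIs summed over all 8 mice, without TMM factors. Smaller classes were not ranked. Exact Poisson 95% intervals cover counting error only, and the levels are a description without a test. Dusp1 ranged from 1.73 to 16.6 CPM, with a median class at 9.05 CPM. It was highest in Ex_L6-like nuclei (16.6 CPM, interval 13.5 to 20.3, 97 UMIs), where single mice ranged from 7.55 to 31.2 CPM, and the next classes overlapped that interval. Where a class had no UMI, the limit given is that of 3 UMIs, which is not the upper end of an interval. Dusp4 was highest in Inh_Ndnf-like nuclei at 16.2 CPM (interval 8.63 to 27.7), in 13 UMIs from 6 of the 8 mice. The next class, led by Tshz2 and Vwc2l, had 9.30 CPM with an interval of 4.25 to 17.7, which overlapped. Dusp4 had no UMI in microglia-like nuclei, a limit of 5.09 CPM.

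Dusp5 had its highest level in a class whose interval overlapped that of the next. It was 37.2 CPM (interval 26.1 to 51.5) in a class of 457 nuclei led by Tshz2 and Vwc2l, against a median of 5.94 CPM over the classes. All 8 mice had UMIs there, at 11.8 to 62.1 CPM. The class next in order, led by Pbx3 and Foxp2, had 17.3 CPM with an interval of 8.30 to 31.8, which overlapped in 10 UMIs. The lowest classes held glia and neurons alike, with 1 UMI in 1173 astrocyte-like nuclei and none in 446 OPC-like nuclei (a limit of 5.50 CPM). The 4 classes of Inh nuclei had 1.03 to 1.73 CPM. These rest on 5 UMIs in Inh_Pv-like, 2 in Inh_Sst-like and 1 each in Inh_Ndnf-like and Inh_Vip-like nuclei. All but Inh_Pv-like lay below their limit of 3 UMIs, and the Inh_Ndnf-like interval reached 6.95 CPM, above the median class.

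Dusp6 had a wide range of levels over the classes, with a median of 22.1 CPM. Microglia-like nuclei had 67.9 CPM (interval 48.5 to 92.5, 40 UMIs), claustrum-like nuclei 58.1 and astrocyte-like nuclei 50.1 CPM, intervals that overlapped each other. The microglia-like cluster also held 151 CPM of Slc17a7, a transcript of excitatory neurons, and 195 CPM of Gad1 and Gad2 together, and the part of such RNA in its Dusp6 was not tested. Dusp6 was low in Inh_Pv-like nuclei at 6.93 CPM and in oligodendrocyte-like nuclei at 5.10 CPM.

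Spry2 was highest in astrocyte-like nuclei, at 137 CPM (interval 119 to 157, 216 UMIs). The next class, led by Tshz2 and Vwc2l, had 78.6 CPM, without overlap of the intervals. The ranges of single mice overlapped, at 89.7 to 172 CPM in astrocyte-like nuclei and 47.8 to 107 CPM in the next class. Spry2 was 67.8 CPM in OPC-like nuclei and 31.1 CPM in the median class. Spred1 was 183 CPM in astrocyte-like and 180 CPM in OPC-like nuclei, which could not be told apart: by the median over mice the order turned, at 164 and 186 CPM. Over the 26 classes it ranged from 56.9 CPM upward, and its highest class was 1.53 times its median class. UMIs in a class do not by themselves show expression there, since droplets also take up free RNA: the neuronal transcripts Slc17a7 and Gad1 with Gad2 stood at 49.5 and 134 CPM in astrocyte-like, 31.9 and 149 CPM in oligodendrocyte-like and 23.8 and 196 CPM in OPC-like nuclei. The part of such RNA in the members' levels was not tested. Spred2, by contrast, was highest in Ex_L5-like nuclei at 87.0 CPM (interval 77.3 to 97.5) and lowest in oligodendrocyte-like nuclei at 21.7 CPM (interval 12.6 to 34.7). Neither end of that order could be told from its neighbour: the class led by Tshz2 and Slc17a6 had 77.8 CPM (interval 58.9 to 100.8) and that led by C130073E24Rik and Rmst 37.6 CPM (interval 29.5 to 47.3).

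Among the classes of over 200 nuclei, Spry4 and Errfi1 had their highest levels in other glia. Spry4 was 27.5 CPM in OPC-like nuclei (interval 15.4 to 45.3, 15 UMIs), 9.31 CPM in Inh_Vip-like and 8.77 CPM in Inh_Sst-like nuclei, against 1.50 CPM in the median class, with no UMI in 365 claustrum-like nuclei (a limit of 2.60 CPM). The interval of OPC-like nuclei overlapped that of the next class. Errfi1 was 59.9 CPM in oligodendrocyte-like nuclei (interval 44.0 to 79.7), 49.9 CPM in Inh_Ndnf-like and 34.8 CPM in OPC-like nuclei, and these intervals also overlapped. The lowest class of Errfi1, led by Pbx3 and Foxp2, had 8.65 CPM.

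**Figure D5:**
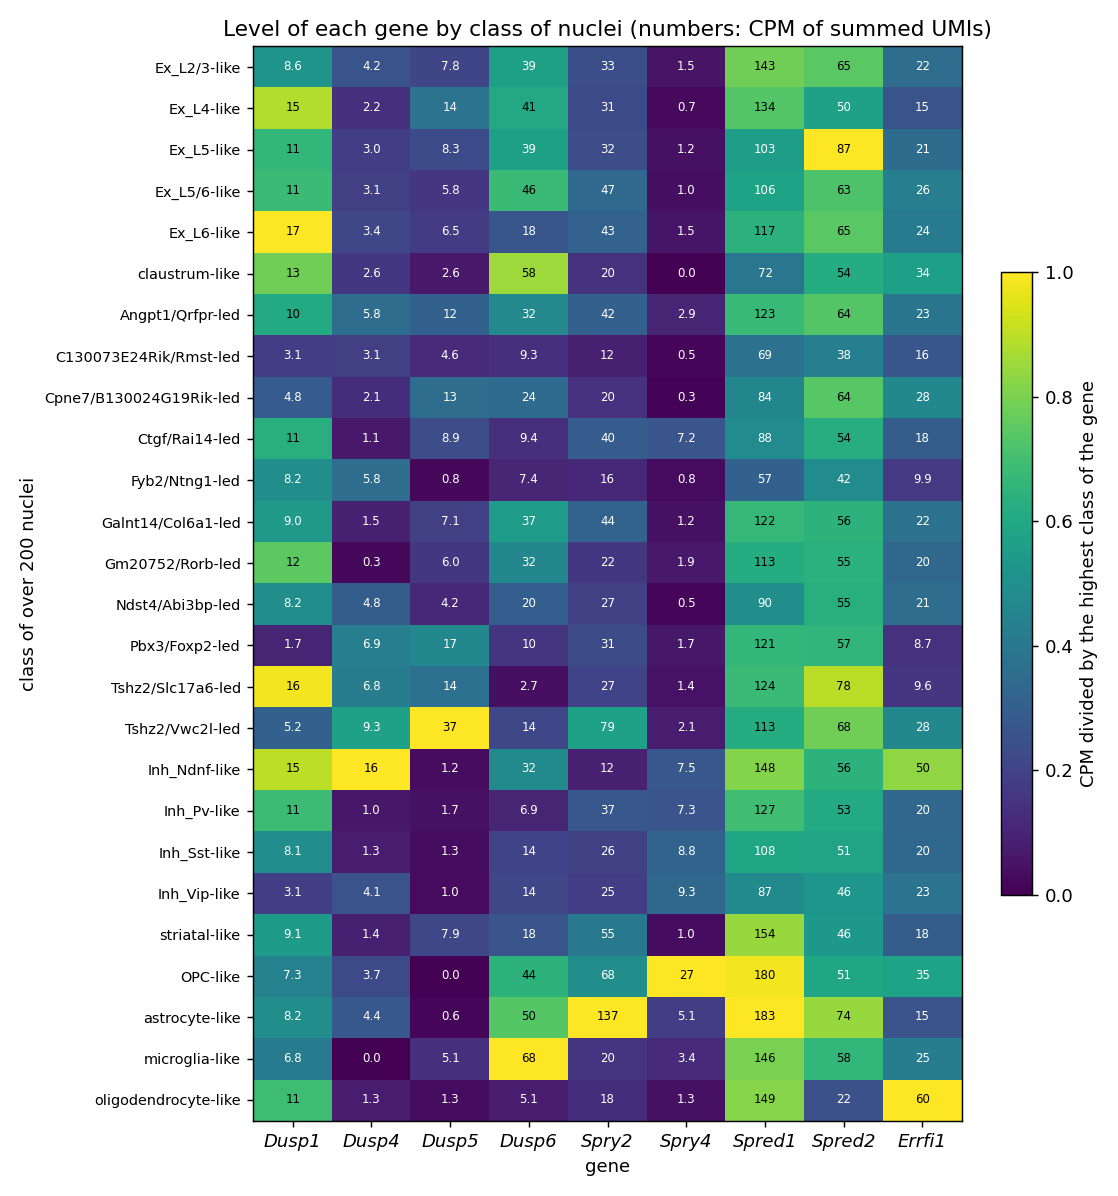
Level of each feedback gene in 26 classes of over 200 nuclei, as CPM of UMIs summed over the 8 mice, with classes in rows, the CPM printed in each cell and color for the CPM divided by that of the gene's highest class. Spry2 is highest in astrocyte-like nuclei at 137 CPM, Spred1 reaches 183 and 180 CPM in astrocyte-like and OPC-like nuclei, and the highest values lie for Dusp5 in the class led by Tshz2 and Vwc2l, and for Spry4 in OPC-like nuclei.

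For each member, the genes with the most similar pattern over the 26 classes were taken among those tested in the sum of all nuclei, by Pearson's r of log2 CPM. The highest were Gm28905 for Dusp5 (r = 0.794), Hsd17b12 for Spry4 (r = 0.788), Mxi1 for Spred1 (r = 0.782) and Pfkm for Spred2 (r = 0.78). Zc3h7a was most like Dusp6 (r = 0.763), Tex10 like Errfi1 (r = 0.753) and Ube2g1 like Dusp1 (r = 0.681). For Spry2 they were Sfxn5 and Ncan (r = 0.655 and 0.654), which like Spry2 were highest in astrocyte-like nuclei, and for Dusp4 Rprd1a (r = 0.613). The next in order were Asap1, Sesn1, Cstf3, Eif2a, Rspry1, Ckb, Nrcam and Rexo2, with r of 0.591 to 0.768. These classes come from the same 8 libraries, the members with few UMIs have noisy patterns, and the values describe likeness alone.

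The related lists gave no call over all nuclei or in excitatory-like nuclei, where they were tested. Over all nuclei, 17 of 22 ERK cascade genes, 8 of 14 JNK and p38 genes, 5 of 21 ErbB and FGF genes and 4 of 18 other transcripts that follow ERK activity could be tested, and none of the other phosphatases, Spry1 or Spred3. Unadjusted p was under 0.05 for 1 ERK cascade gene and 2 of the ERK-following transcripts over all nuclei, and for 1 and 3 in excitatory-like nuclei. The list medians of the log2 fold change over all nuclei were 0.0021, -0.02, -0.18 and 0.25, next to -0.0035 over all genes tested. All 5 ErbB and FGF genes tested were lower in CUS mice, and 3 of the 4 ERK-following transcripts were higher, where 49.1% of all genes tested were higher. Their FDRs were 0.587 to 0.734 and 0.587 to 0.965 (edgeR). Of these transcripts, Egr1 had a log2 fold change of 0.65, Egr3 of 0.49, Epha4 of 0.014 and Etv1, the lower one, of -0.11. Egr1 and Egr3 were those with an unadjusted p under 0.05 over all nuclei. None passed, and nothing is read from these directions.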

How the data were processed

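Bulk nuclear RNA-seq (4 control and 5 CUS mice) and sNucDrop-seq (4 and 4) were grouped by the sample labels. The deposited values are counts made by the authors: uniquely mapped reads per gene in bulk, aligned to mm10 with STAR, and UMIs per gene and barcode in the nuclei, from exonic and intronic reads on the gene's strand. The members and all gene lists were chosen with earlier results of these data known.

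Bulk counts were tested with the quasi-likelihood test of edgeR 4.0.16 (R 4.3.3), with TMM factors, on genes kept by filterByExpr, at an FDR of 0.05 (Benjamini-Hochberg over all genes tested). A barcode counted as a nucleus if it had 600 to 5000 genes and less than 5% of UMIs from mitochondrial genes. Barcodes whose doublet score, computed after Scrublet, was above 0.2 were removed. Nuclei of all mice were clustered with Seurat 5.3.0 (2000 variable genes, 50 principal components, resolution 1). A cluster was named X-like when at least 3 markers of a type were enriched 1.5-fold and at least 1 was among its 10 leading genes. The type also needed more leading markers than any other. Other clusters carry their leading genes. An unnamed cluster of 205 nuclei, with at least 100 CPM of Slc17a7 and of Gad1 plus Gad2, was left out of all classes. So was an oligodendrocyte cluster of 93 nuclei, whose median UMIs were over 1.5 times the glial median. Both stayed in the sum of all nuclei. The broad classes followed other rules. Excitatory-like joined clusters with at least 100 CPM of Slc17a7 and under 100 CPM of Gad1 plus Gad2, with or without a matching marker list. Inhibitory-like joined only clusters that matched an Inh list. Gad-rich clusters led by C130073E24Rik and Rmst (759 CPM of Gad1 plus Gad2) and by Pbx3 and Foxp2 (1000 CPM) were therefore in neither. UMIs summed per mouse were tested in the same way at an FDR of 0.2, on genes with summed UMIs over 10% of the nuclei. The study used 2 batches of nuclei that the labels do not assign, so no batch term was fitted. Intervals of fold changes are the log2 fold change plus and minus 1.96 SE, the normal quantile for 95%. They ignore the few degrees of freedom of the quasi-likelihood test and are somewhat too narrow. The fits were also run on counts simulated from the same kind of model, without batches and on genes past the filter. Such a run cannot vouch for the fits without the filter or for batch effects.

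The named genes are all members, the called genes of each list (or the 2 with the largest difference where none was called), and the 2 genes most like each member over classes. The ERK-following transcripts tested over all nuclei are named as well. Spry3 was in no table used here. Alternatives were edgeR's likelihood ratio test, DESeq2 1.42.0, library totals without TMM, all genes without the low-count filter, a replicate block, each mouse left out, and for the nuclei no doublet filter, a minimum of 1000 genes and a resolution of 0.6. Mice of a group differed by more than counting error (chi-square per degree of freedom 2.65 to 24.4).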

Additional observations from a re-analysis of the deposited data

Results flagged for a closer look

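In the nuclei, the log2 ratio of the mean CPM of Dusp1, CUS to control, was 0.60, while in bulk mPFC the log2 fold change was -0.60. All 4 CUS mice of the nuclei lay above the mean of their control group, and all 5 CUS mice in bulk lay below theirs. The difference between the experiments was not tested, since region, age, method and, by the methods, the event before collection differed with it.

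Control mouse 3 stood apart for Dusp5 in the nuclei. At 8.49 CPM, against 4.61 to 5.01 CPM in the other 3 control mice, its gap to the nearest mouse was 0.897 of the range of the group. Of 36 groups of a member and a condition examined, 1 had such a mouse, and chance marks about 1 in 20.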

How the results depend on the processing

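Dusp1 passed in bulk under every alternative run, with log2 fold changes of -0.67 (without control mouse 3) to -0.53 (without control mouse 1) when mice were left out and FDRs of 0.00170 to 0.0383. The number of members called in bulk was 1, and 2 under the likelihood ratio test and under DESeq2, which added Dusp6. With each mouse left out it was 1 throughout. The 6 calls in the related lists became 12 under the likelihood ratio test and 13 under DESeq2, and 3 (without control mouse 2) to 13 (without control mouse 3) when mice were left out. All genes called numbered 606, against 1330 and 1413 under those tests and 133 to 1508 without control mouse 2 or 3. Log2 fold changes of uncalled members crossed 0 when mice were left out: Dusp4 from -0.016 (without control mouse 1) to 0.29, Spred2 from -0.020 (without control mouse 4) to 0.22, and Errfi1 from -0.11 to 0.045 (without control mouse 4).

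In the nuclei, edgeR's quasi-likelihood test called 0 of the 2 members it could be run on over all nuclei (Spred1 and Spred2), with 0 at an unadjusted p under 0.05. Without the filter on low counts 1 of 9 was called (Dusp6), beside 292 of 36495 genes in that fit. There 5 had an unadjusted p under 0.05 (Dusp1, Dusp5, Dusp6, Spry2 and Spry4, all with a higher level in CUS mice). The share of all genes under that p was not counted and these p-values treat the spread as known, so nothing is read from the 5. Without CUS mouse 2 the planned fit also called 1 (Spred2, FDR = 0.190), so the count ran from 0 to 1 with mice left out. In excitatory-like nuclei it was 0 with each mouse left out. The single call among classes, Spred1 in Ex_L2/3-like nuclei, held under the likelihood ratio test (FDR = 0.0714) and DESeq2 (FDR = 0.171). The count became 0 without TMM factors, without the filter, without the doublet filter and with a minimum of 1000 genes. With mice left out the number of calls ran from 0 to 4 (without CUS mouse 2). The difference of the CUS effect on Spred1 between excitatory-like and inhibitory-like nuclei ran from -0.0020 to 0.12 with mice left out. The cause of these changes was not tested.

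The labels give same-numbered mice nothing in common but the number. In bulk their deviations correlated by 0.022 to 0.14, and those of differently numbered control and CUS mice by -0.14 to 0.078. In the nuclei the ranges were -0.47 to 0.40 and -0.60 to 0.54. Whether same-numbered bulk mice were handled as pairs was not tested. Control mice 2 and 3 correlated with CUS mice 3 and 4 by 0.27 to 0.54, and control mice 1 and 4 with CUS mice 1 and 2 by 0.053 to 0.54. Across these sets, control mice 1 and 4 correlated with CUS mice 3 and 4 by -0.54 to -0.31. Control mice 2 and 3 correlated with CUS mice 1 and 2 by -0.60 to 0.060, where the positive value was that of control mouse 3 with CUS mouse 1. The labels do not assign the study's 2 batches, so their part in the calls and in the missing calls among nuclei was not tested. With a replicate block, over bulk replicates 1 to 4, 1 member and 4 genes of the related lists were called, as without the block over the same mice, and 233 and 142 of all genes. In the nuclei the replicate block gave 0 members over all nuclei and 1 class pair (Spred1 in Ex_L2/3-like nuclei, FDR = 0.0884). With 157 to 2454 UMIs, the 7 members other than Spred1 and Spred2 were too rare for the planned test over all nuclei.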
